A study of Mus musculus with 9 samples.

Results

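The genes described here are 9 genes of type I interferon receptor signalling in mouse, namely the receptor chains *Ifnar1* and *Ifnar2*, the kinases *Jak1* and *Tyk2*, the signal transducer *Stat2*, and the interferon regulatory factors *Irf1*, *Irf3*, *Irf7* and *Irf9*. They were taken by name for their role in the pathway, with earlier results of these data known. They are 9 of the 14108 genes in the count tables, all 9 were found by their Entrez numbers, and all 9 passed the filter on low counts. RNA-seq was performed on GFP-positive cells that had been sorted from tumours of 3 models, HR1, LM1 and LM9, with 3 tumours in each. HR1 (LB-mHR1) is a mouse mammary cancer line without metastatic behaviour, taken from a tumour of a transgenic mouse that expressed *PIK3CA* H1047R from the CAG promoter. LM1 and LM9 are lines isolated from metastases in the lung that arose after a doxycycline-inducible *piggyBac* transposon had been put into HR1 cells, so all 3 models share the *PIK3CA* allele, and each LM model is a single derived line. For each tumour, 250000 cells in Matrigel and PBS were placed in the mammary fat pad of a female NOD/SCID mouse aged 4 to 8 weeks. The tumour was removed before it reached 1500 mm3. NOD/SCID mice lack functional T and B cells but keep myeloid cells. The study contrasted the *Nfib* high-expression models LM1 and LM9 with the *Nfib* low-expression model HR1 to address the role of NFIB signalling in metastatic colonization.

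Type I interferons such as interferon beta bind a receptor made of the IFNAR1 and IFNAR2 chains, to which the kinases TYK2 and JAK1 are bound. The kinases phosphorylate STAT2, which joins IRF9 in the complex ISGF3, and ISGF3 binds interferon-stimulated response elements (ISRE) in the promoters of interferon-stimulated genes. IRF3 is present in most resting cells and IRF7 is itself induced by interferon, and both are phosphorylated downstream of nucleic acid sensors and then drive transcription of interferon genes. IRF1 is induced through gamma-activated sites (GAS), to which STAT dimers bind, and by other signals. In mammary tumours the pathway is known for its links to immune surveillance and metastasis.

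The sequences before the RefSeq starts of *Stat2*, *Irf1*, *Irf7* and *Irf9* are shown because these 4 genes rose in both LM models. The sequences come from RefSeq on GRCm38.p6, in which the 9 genes have 11 windows that hold 250 bases before the annotated start and 50 bases from it on. The windows were searched on both strands for the ISRE letters GAAANNGAAA, and for the GAS letters TTCNNNGAA, which read the same on both strands, and no matches overlapped. Of all 32851 promoter windows, 3.44% held the ISRE letters and 8.30% held the GAS letters. The 250 bases before the start are printed 5′ to 3′ on the strand of the gene, for *Stat2* chr10:128270248-128270497 (plus strand), *Irf1* chr11:53769764-53770013 (plus strand), *Irf7* chr7:141266425-141266674 (minus strand) and *Irf9* chr14:55603735-55603984 (plus strand), and for *Irf1* and *Irf9* they are those of the more upstream of 2 windows. GENCODE, from which the positions of the genes below are taken, starts *Irf9* 414 bases further upstream, so both *Irf9* windows lie inside that gene and the sequence before its GENCODE start was not searched. It starts *Irf7* 57 bases further upstream and *Stat2* 61 bases further downstream than RefSeq, and both give the same start for *Irf1*. Capitals mark the letters of a match.
Stat2: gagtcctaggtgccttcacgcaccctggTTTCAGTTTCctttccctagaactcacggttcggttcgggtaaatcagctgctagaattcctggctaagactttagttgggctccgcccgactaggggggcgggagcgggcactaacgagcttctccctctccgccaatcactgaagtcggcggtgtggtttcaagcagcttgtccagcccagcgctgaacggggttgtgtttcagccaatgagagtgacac
Irf1: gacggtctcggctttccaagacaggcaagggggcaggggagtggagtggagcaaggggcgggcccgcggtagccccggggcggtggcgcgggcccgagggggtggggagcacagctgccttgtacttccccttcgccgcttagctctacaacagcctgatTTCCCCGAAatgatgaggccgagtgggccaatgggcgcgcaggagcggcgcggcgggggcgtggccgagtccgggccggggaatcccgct
Irf7: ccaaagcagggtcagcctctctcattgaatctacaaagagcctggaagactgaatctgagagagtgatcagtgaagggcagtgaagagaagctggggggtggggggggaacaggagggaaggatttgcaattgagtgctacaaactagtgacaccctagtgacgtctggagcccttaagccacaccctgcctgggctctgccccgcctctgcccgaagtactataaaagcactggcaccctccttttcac
Irf9: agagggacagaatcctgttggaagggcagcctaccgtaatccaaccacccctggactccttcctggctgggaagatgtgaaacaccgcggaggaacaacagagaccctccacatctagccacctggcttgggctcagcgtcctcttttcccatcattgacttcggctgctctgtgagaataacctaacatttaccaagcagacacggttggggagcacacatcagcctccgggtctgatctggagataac
*Stat2* was the 1 gene of the 9 with an ISRE match, TTTCAGTTTC, the letters as read on the strand of the gene, and its last base lay 213 bases before the start. GAS matches were found for 3 genes. That of *Irf1* was TTCCCCGAA, ending 82 bases before the start, that of *Ifnar2* was TTCCTGGAA, ending 206 bases before it, and that of *Ifnar1* was TTCACGGAA, which spanned the start. The windows of *Irf7*, *Irf9*, *Irf3*, *Jak1* and *Tyk2* did not hold these letters. A match is a match of letters, and binding was not measured.

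Total counts per tumour were 32393958 to 46681945, and the 9 genes had between 403 and 97349 counts in each tumour. Levels are CPM, that is counts scaled to the library size after TMM normalization, and differences are log2 fold changes from edgeR's quasi-likelihood test with p-values adjusted by the Benjamini-Hochberg method over 14086 tested genes, called at an adjusted p under 0.05. The p-values measure the spread between tumours of a model, and the labels do not say whether the tumours came from separate cultures. The tumour labelled HR1 replicate 1 stood apart: its log2 CPM correlated with those of the other HR1 tumours at 0.878 and 0.891, against 0.961 between these. Its *Nfib* level was 1343 CPM, above each of the 6 LM tumours (420.6 to 791 CPM), against 23.9 and 18.3 CPM in HR1 replicates 2 and 3.

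Markers of cell types were measured over whole lists. The 6 listed mammary epithelial markers summed to 7.55 to 121 CPM in HR1, 158 to 181 CPM in LM1 and 14.4 to 18.0 CPM in LM9. *Krt14*, a keratin of basal cells, made up most of the higher sums, with 1.56, 31.4 and 109 CPM in HR1, 152 to 175 CPM in LM1 and 12.2 to 15.4 CPM in LM9. The other 5 markers together were at most 12.5 CPM in any tumour, and *Krt8* was not among the listed genes. The 10 fibroblast markers summed to 23424 to 35254 CPM in HR1, 10404 to 13828 CPM in LM1 and 8976 to 10546 CPM in LM9. Of these 10, 9 fell in LM1 and LM9 versus HR1 at a median log2 fold change of −1.88, and *Col1a1* was not called. Without the tumour labelled HR1 replicate 1, 7 were called lower, beside 56% of all genes called in either direction. *Dcn* was at 17605 CPM in that tumour and at 432 and 329 CPM in HR1 replicates 2 and 3. It was at 562 to 645 CPM in LM1 and 15.9 to 76.8 CPM in LM9. The 7 endothelial markers summed to 10.2 to 35.7 CPM in HR1, 166 to 229 CPM in LM1 and 261 to 298 CPM in LM9, the same order of models as for *Stat2*, *Irf1*, *Irf7* and *Irf9*. *Cdh5*, the cadherin of endothelial junctions, was at 1.88 to 13.4 CPM in HR1, 136 to 190 CPM in LM1 and 228 to 254 CPM in LM9, and *Kdr*, a receptor of vascular endothelial growth factor, was at 0.432 to 1.73, 22.3 to 34.0 and 23.3 to 37.3 CPM. Both rose in each LM model versus HR1, while the other 5 endothelial markers, with *Pecam1* among them, summed to 7.18 to 20.6 CPM in HR1, 4.52 to 4.90 CPM in LM1 and 6.31 to 9.18 CPM in LM9. Of the 7, 2 rose and 4 fell in LM1 and LM9 versus HR1. The summed level of 13 leukocyte markers was 178 to 751 CPM in HR1, 153 to 163 CPM in LM1 and 190 to 234 CPM in LM9. Without the macrophage gene *Cd68*, at 107 to 138 CPM in LM9 and 15.9 to 17.9 CPM in LM1, the other 12 summed to 137 to 629 CPM in HR1, 135 to 147 CPM in LM1 and 54.6 to 95.9 CPM in LM9, so the order of LM1 and LM9 turned. The defining leukocyte gene *Ptprc* was 2.29 to 11.3 CPM over all tumours, and *Cd3e*, *Cd79a* and *Nkg7* were not among the listed genes. In LM1 and LM9 versus HR1, 8 of the 13 leukocyte markers fell and 5 were not called. In this comparison 19.9% of all tested genes were called higher and 23.6% lower. The part of these cell types in the results was not tested, and in sorted bulk cells a smaller number of cells of a type and less RNA per cell cannot be told apart.

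In LM1 and LM9 together, *Stat2*, *Irf1*, *Irf7* and *Irf9* rose against HR1, *Ifnar1* and *Irf3* fell, and *Ifnar2*, *Jak1* and *Tyk2* were not called. The 4 higher genes of 9 stood beside 19.9% of all tested genes called higher, and the 2 lower genes beside 23.6% called lower, so the lower share was near that of all genes. The same 4 genes rose in LM1 versus HR1, where 16.7% of genes were called higher, and in LM9 versus HR1, where 20.4% were. *Ifnar1* and *Tyk2* fell in LM1 (18.7% of genes called lower) and *Ifnar1* and *Irf3* fell in LM9 (21.9%). In LM9 versus LM1, *Tyk2*, *Stat2*, *Irf1*, *Irf7* and *Irf9* rose and the other 4 were not called, where 11.5% of genes were called higher and 10.6% lower. LM1 versus HR1 and LM9 versus HR1 share the 3 HR1 tumours, and LM9 versus LM1 shares none of them.

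Without the tumour labelled HR1 replicate 1, many more genes of the whole table were called: 56% in LM1 and LM9 versus HR1, 52.8% in LM1 versus HR1, 55.7% in LM9 versus HR1 and 45.5% in LM9 versus LM1. The counts of the 9 genes stayed at 4 higher and 2 lower in each comparison with HR1 and 5 higher in LM9 versus LM1. Of 14107 genes tested in this fit, 3885 were called higher and 4017 lower in LM1 and LM9 versus HR1. In LM9 versus LM1 these counts were 3236 and 3177. The 9 genes thus stood nearer to the share of all genes than in the main fit, and the 2 lower genes were not above that share. In HR1 replicate 1, *Irf7* at 206 CPM, *Stat2* at 32.7 CPM, *Irf9* at 54.2 CPM and *Irf1* at 81.7 CPM all lay below each LM tumour. Its *Nfib* level lay above each of them. These are values of 1 tumour, and a relation of the 9 genes to *Nfib* was not tested.

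**Figure D1:**
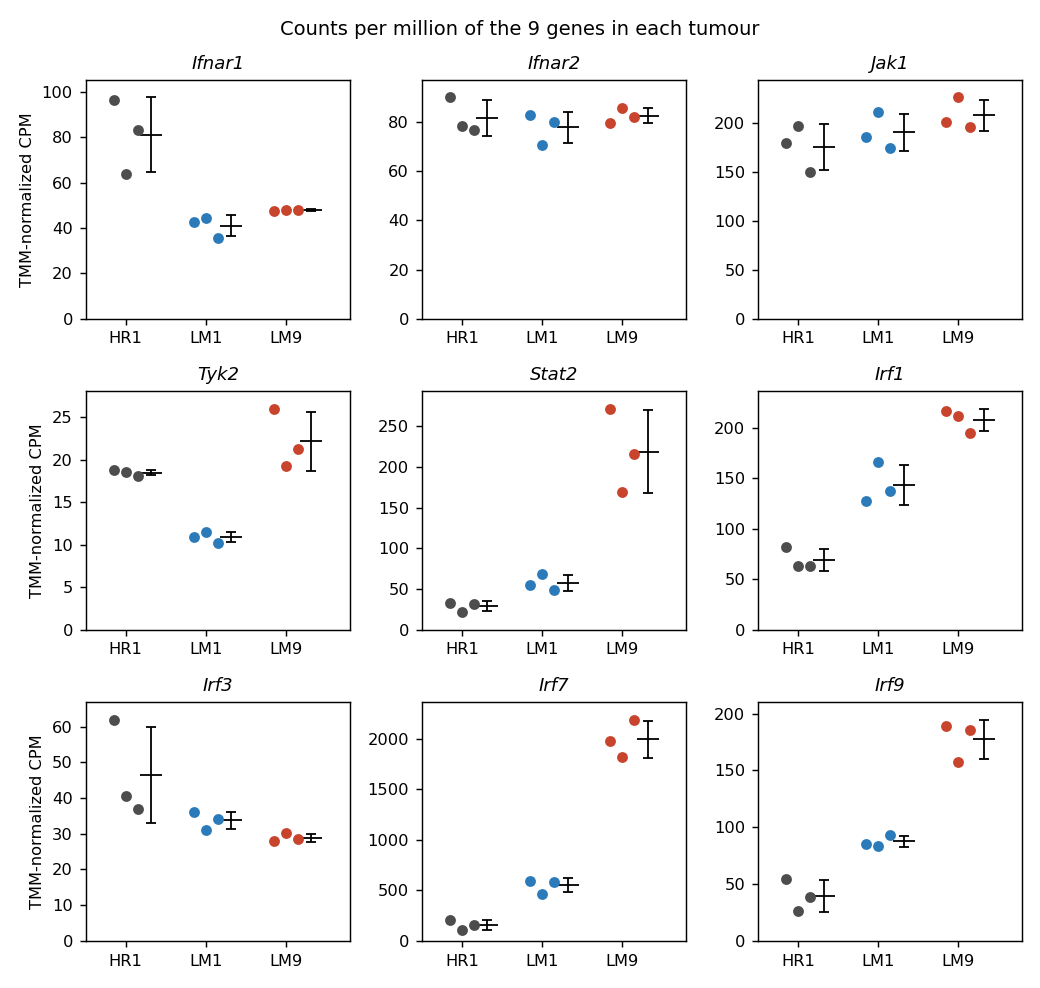
TMM-normalized CPM of the 9 genes in each of the 9 tumours, with 1 panel per gene, a linear axis from 0, points for tumours (replicates 1 to 3 from left to right) and bars for the mean ± SD of 3 tumours. *Stat2*, *Irf1*, *Irf7* and *Irf9* lie in the order HR1, LM1, LM9 with no overlap, *Ifnar1* lies at 63.7 to 96.4 CPM in HR1 and at 35.6 to 48.1 CPM in the LM tumours, and *Tyk2* is lowest in LM1.

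Of the receptor chains, *Ifnar1* fell in both LM models and *Ifnar2* was level. *Ifnar1* (Entrez 15975) lies on chromosome 16 of GRCm38 from 91485238 to 91507441 on the plus strand, and *Ifnar2* (Entrez 15976) on the same strand from 91372783 to 91405589. *Ifnar1*, the chain to which TYK2 binds, was at 96.4, 63.7 and 83.0 CPM in HR1 replicates 1 to 3, at 42.5, 44.4 and 35.6 CPM in LM1 and at 47.6, 47.9 and 48.1 CPM in LM9. Each LM tumour was below every HR1 tumour, and the LM9 tumours were all above those of LM1. Against HR1 it fell by 0.99 ± 0.17 on the log2 scale in LM1 (SE, n = 3 tumours each, edgeR adjusted p = 0.00275), and its log2 fold change was −0.76 ± 0.17 (edgeR adjusted p = 0.00753) in LM9 versus HR1. The difference of 0.23 between LM9 and LM1 was not called (95% interval −0.15 to 0.61, edgeR adjusted p = 0.351).

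*Ifnar2*, the chain to which JAK1 binds, was at 90.1, 78.4 and 76.6 CPM in HR1, at 82.8, 70.7 and 80.2 CPM in LM1 and at 79.8, 86.0 and 82.2 CPM in LM9. The 3 models overlapped. Its log2 fold change was −0.07 in LM1 versus HR1 (95% interval −0.35 to 0.21) and 0.02 in LM9 versus HR1 (95% interval −0.26 to 0.29), and its sign in these comparisons changed with the scaling or with the tumour left out. *Ifnar2* shares 315 exon bases, 9.92% of its exon length, with *Gm21970* on the same strand, so its counts may hold reads of both. The receptor genes *Il10rb* and *Ifngr2* stand beside these chains on chromosome 16, in the order *Ifnar2*, *Il10rb*, *Ifnar1* and *Ifngr2*. *Il10rb*, a chain of the interleukin 10 and interferon lambda receptors, fell by 0.74 in LM1 and by 0.40 in LM9 on the log2 scale. *Ifngr2*, a chain of the interferon gamma receptor, fell by 0.56 in LM9 and stood at −0.48 in LM1, where it was not called (edgeR adjusted p = 0.0784).

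Of the receptor-bound kinases, *Jak1* was level and *Tyk2* was lower in LM1 alone of the 2 LM models. *Jak1* (Entrez 16451, chromosome 4, 101152367 to 101265282, minus strand) also serves many cytokine receptors besides those of interferons. It was at 179, 196 and 150.0 CPM in HR1, at 185, 211 and 174 CPM in LM1 and at 201, 226 and 196 CPM in LM9. The 3 models overlapped. Against HR1, its log2 fold change was 0.12 for LM1 (95% interval −0.21 to 0.45) and 0.25 for LM9 (95% interval −0.08 to 0.57).

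*Tyk2* (Entrez 54721, chromosome 9, 21104068 to 21131243, minus strand) was at 18.8, 18.6 and 18.1 CPM in HR1, at 11.0, 11.5 and 10.2 CPM in LM1 and at 26.0, 19.2 and 21.3 CPM in LM9. The 3 models did not overlap, with LM1 lowest and LM9 highest. The log2 fold change of *Tyk2* was −0.76 ± 0.16 (SE, edgeR adjusted p = 0.00666) in LM1 versus HR1. In LM9 versus HR1 it was 0.26 ± 0.16 (edgeR adjusted p = 0.206) and was not called. The test of LM9 versus LM1 gave 1.02 ± 0.16 (edgeR adjusted p = 0.0039), a 2.03-fold difference. The mean of both LM models against HR1, −0.25 (edgeR adjusted p = 0.161), therefore joined opposite values. *Jak2* was lower in LM1 versus HR1 (−1.18) and *Jak3*, a kinase of lymphoid cytokine receptors, was higher (1.36), and neither was called in LM9 versus HR1. *Jak3* was lower in LM9 than in LM1 (−1.44).

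**Figure D2:**
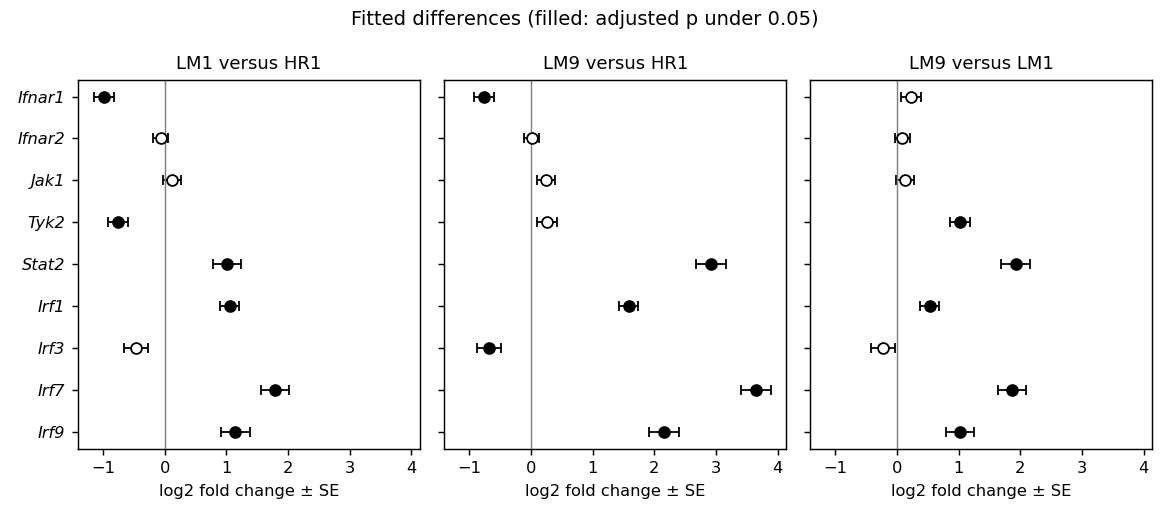
Log2 fold change of the 9 genes ± SE of each gene, for LM1 versus HR1, LM9 versus HR1 and LM9 versus LM1 (filled symbols, adjusted p under 0.05). *Irf7* reaches 3.65 in LM9 versus HR1, and the symbols of *Ifnar2* and *Jak1* are open and near 0 in all 3 panels.

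The ISGF3 genes *Stat2* and *Irf9* rose in both LM models and more in LM9. *Stat2* (Entrez 20847, chromosome 10, 128270559 to 128292849, plus strand), whose protein carries a transactivation domain of ISGF3, was at 32.7, 21.9 and 31.8 CPM in HR1, at 55.6, 68.4 and 49.3 CPM in LM1 and at 272, 169 and 216 CPM in LM9. The models did not overlap, and the spread was widest within LM9. *Stat2* rose by 1.00 ± 0.23 on the log2 scale (SE, edgeR adjusted p = 0.00997) in LM1 versus HR1 and by 2.93 ± 0.24 (edgeR adjusted p = 9.1e-05) in LM9 versus HR1, that is 2.01-fold and 7.61-fold. LM9 was above LM1 by 1.92 ± 0.23 (edgeR adjusted p = 0.00152). This is the gene with the ISRE letters in its window.

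*Irf9* (Entrez 16391, chromosome 14, 55603571 to 55610030, plus strand) encodes the subunit of ISGF3 that recognizes the ISRE. It was at 54.2, 26.5 and 38.3 CPM in HR1, at 85.6, 83.9 and 92.9 CPM in LM1 and at 189, 158 and 185 CPM in LM9. The models did not overlap, and HR1 replicate 1 was the highest of the HR1 tumours. *Irf9* rose by 1.14 ± 0.23 on the log2 scale (SE, edgeR adjusted p = 0.00638) in LM1 versus HR1, by 2.16 ± 0.24 (edgeR adjusted p = 3.7e-04) in LM9 versus HR1 and by 1.02 ± 0.23 (edgeR adjusted p = 0.0171) in LM9 versus LM1. The last value lost its call without any of LM1 replicates 1 to 3 or LM9 replicates 1 or 3, at edgeR adjusted p from 0.0537 to 0.0710. *Irf9* shares 123 exon bases (3.97%) with *Rnf31* on the same strand.

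Per kilobase of exon, *Stat2* stood at 0.425 to 0.586 of the level of *Irf9* in the HR1 tumours, 0.374 to 0.575 in the LM1 tumours and 0.757 to 1.01 in the LM9 tumours. The LM9 tumours lay above all others in this ratio, and HR1 and LM1 overlapped. This ratio was not tested.

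Of the other interferon regulatory factors, *Irf7* had the largest log2 fold change of the 9 genes in each comparison with HR1, *Irf1* rose in both LM models, and *Irf3* fell in LM9. *Irf7* (Entrez 54123, chromosome 7, 141262706 to 141266481, minus strand), the factor that amplifies interferon production, was at 206, 112 and 160.2 CPM in HR1, at 595, 469 and 583 CPM in LM1 and at 1976, 1825 and 2191 CPM in LM9. Every LM1 tumour was above every HR1 tumour and every LM9 tumour above every LM1 tumour. The log2 fold change was 1.78 ± 0.23 (SE, edgeR adjusted p = 7.5e-04) in LM1 versus HR1, a 3.44-fold difference, and 3.65 ± 0.24 (edgeR adjusted p = 3.4e-05) in LM9 versus HR1, a 12.5-fold difference. LM9 was 3.64-fold above LM1 (log2 1.86 ± 0.23, edgeR adjusted p = 0.00152).

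*Irf3* (Entrez 54131, chromosome 7, 44997648 to 45002848, plus strand), the factor present before interferon is made, was at 61.9, 40.4 and 37.0 CPM in HR1, at 36.0, 31.1 and 34.1 CPM in LM1 and at 27.9, 30.1 and 28.6 CPM in LM9. The models did not overlap, but the lowest HR1 tumour and the highest LM1 tumour differed by less than 1 CPM, and HR1 replicate 1 was far above the other HR1 tumours. The log2 fold change was −0.69 ± 0.20 (SE, edgeR adjusted p = 0.0222) in LM9 versus HR1 and −0.46 ± 0.20 (edgeR adjusted p = 0.0963) in LM1 versus HR1. Without the tumour labelled HR1 replicate 1 the values were −0.42 (edgeR adjusted p = 0.0156) and −0.19 (edgeR adjusted p = 0.215), and for both LM models together −0.31 in place of −0.57. The call in LM9 versus HR1 was lost without any of the LM9 tumours (edgeR adjusted p from 0.0536 to 0.0764) or with only the 6 tumours compared in the fit (edgeR adjusted p = 0.0576), and that of both LM models was lost without LM9 replicate 1 (edgeR adjusted p = 0.0510). Per kilobase of exon, *Irf7* was 2.54 to 3.96 times the level of *Irf3* in the HR1 tumours, 13.8 to 15.7 times in LM1 and 55.5 to 70.0 times in LM9, with no overlap between models.

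*Irf1* (Entrez 16362, chromosome 11, 53770014 to 53778374, plus strand), a factor induced by interferons and other signals, was at 81.7, 62.8 and 63.2 CPM in HR1, at 127, 166 and 137 CPM in LM1 and at 217, 211 and 195 CPM in LM9. The models did not overlap. The log2 fold change was 1.05 ± 0.16 (SE, edgeR adjusted p = 0.0015) in LM1 versus HR1 and 1.59 ± 0.16 (edgeR adjusted p = 2.1e-04) in LM9 versus HR1. The difference of LM9 and LM1, 0.53 ± 0.16 (edgeR adjusted p = 0.0393), was smaller than for *Stat2*, *Irf7* or *Irf9* and lost its call with library sizes alone as scaling (edgeR adjusted p = 0.0502) or without LM1 replicate 1 or 3 or any LM9 tumour (edgeR adjusted p from 0.0873 to 0.149). Of 10 genes of the immediate response to cell dissociation, 7 rose and 1 fell in LM1 and LM9 versus HR1 (19.9% and 23.6% of all genes), with a summed level of 2204 to 3535 CPM in HR1, 4098 to 6076 CPM in LM1 and 6019 to 10810 CPM in LM9, and their part in the *Irf1* values was not tested. Its window holds GAS letters, and it shares 100 exon bases (3.00%) with *Gm17334* on the opposite strand, and the strand setting of the counts was not given in the sources used here.

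**Figure D3:**
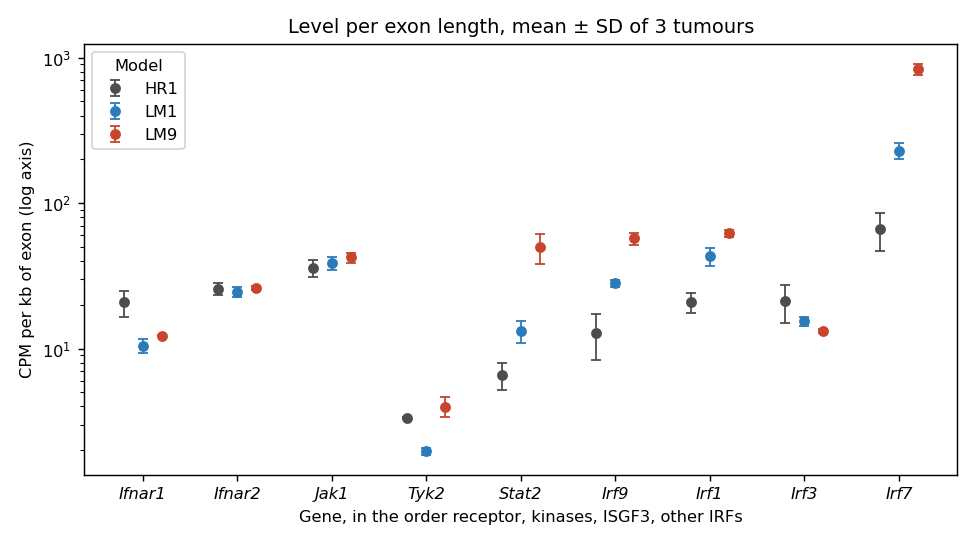
Level of the 9 genes as CPM per kilobase of exon on a log axis, mean ± SD of 3 tumours in each model. *Irf7* stands highest in all 3 models, at 66.7, 229 and 835, and *Tyk2* lowest, at 3.32, 1.96 and 3.98.

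Levels of different genes were compared per kilobase of exon. *Irf7* led in each model, with 66.7 ± 19.5 CPM per kilobase (SD, n = 3) in HR1, 229 ± 29.0 in LM1 and 835 ± 76.8 in LM9, and *Tyk2* was last, with 3.32 ± 0.06, 1.96 ± 0.11 and 3.98 ± 0.63. In HR1, *Jak1* (35.7 ± 4.76) was next after *Irf7*. *Ifnar2*, *Irf3*, *Irf1*, *Ifnar1* and *Irf9* followed from 25.7 to 12.8 CPM per kilobase with neighbours that did not differ beyond their SDs, and *Stat2* (6.55 ± 1.36) came before *Tyk2*. In LM1, *Irf1* and *Jak1* (43.0 and 38.7) did not differ beyond their SDs, and neither did *Irf3* and *Stat2* (15.4 and 13.1) nor *Stat2* and *Ifnar1* (10.5). In LM9, *Irf1* (62.2 ± 3.36) was next after *Irf7*. The neighbours from *Irf1* through *Irf9* and *Stat2* to *Jak1* (42.3) again overlapped within their SDs, and *Ifnar2* (26.0), *Irf3* (13.2) and *Ifnar1* (12.2) were apart. *Stat2* thus stood at place 8 of the 9 genes for HR1, place 7 for LM1 and place 4 for LM9, while *Ifnar1* stood at place 6, 8 and 8.

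Among the interferon genes, *Ifnb1*, which encodes interferon beta, a ligand of this receptor, had 2, 12 and 7 counts in HR1, 114, 76 and 66 counts in LM1 and 986, 305 and 709 counts in LM9. The models did not overlap, and the levels were under 1 CPM in HR1, 1.68 to 2.39 CPM in LM1 and 6.98 to 21.2 CPM in LM9. *Ifnb1* rose, by 3.42 ± 0.55 on the log2 scale (SE, edgeR adjusted p = 0.0022) in LM1 versus HR1, 6.35 ± 0.61 (edgeR adjusted p = 1.7e-04) in LM9 versus HR1 and 2.93 ± 0.50 (edgeR adjusted p = 0.00566) in LM9 versus LM1. *Ifnz*, the other of 11 interferon genes looked for that was listed, was at most 0.731 CPM and was not called, and it belongs to a family with near-identical copies. The other 9 were not among the listed genes.

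**Figure D4:**
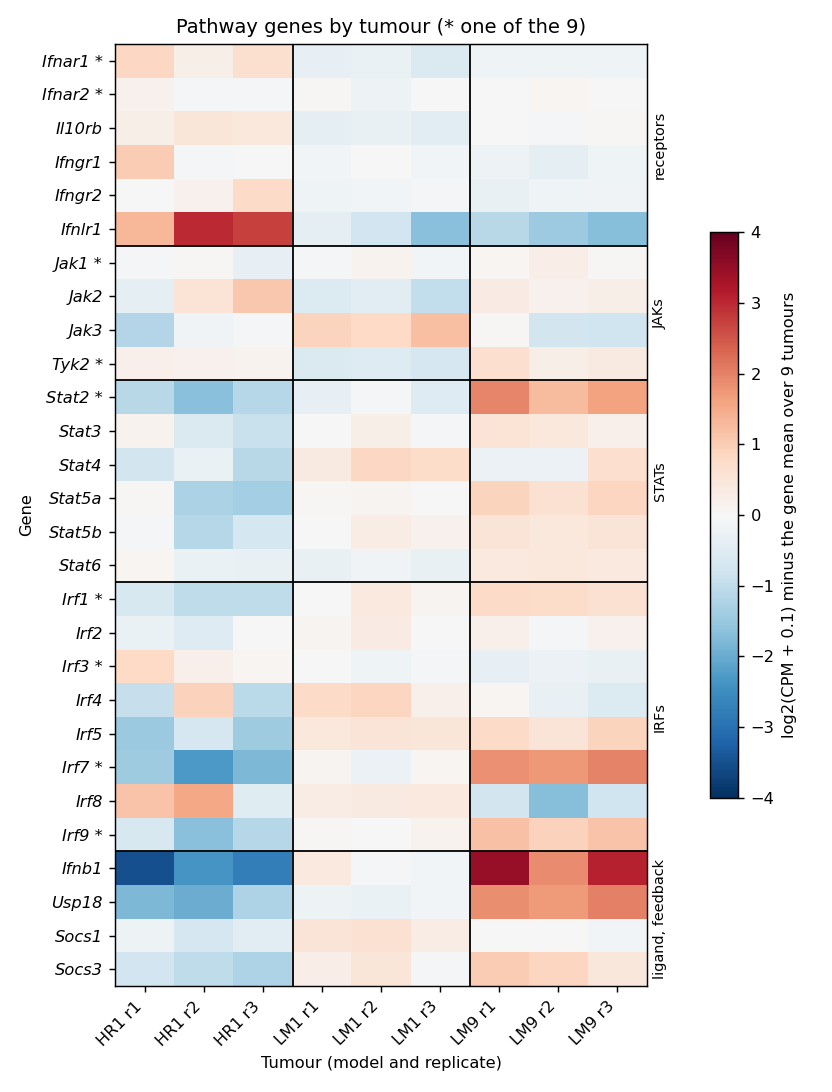
Log2(CPM + 0.1) of pathway genes in each tumour minus the mean of the gene over the 9 tumours, with genes ordered by role and the 9 genes marked by an asterisk. *Ifnb1*, *Irf7*, *Stat2* and *Usp18* step up from HR1 to LM1 to LM9, and *Ifnlr1* is low in all 6 LM tumours.

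Of 18 other receptor, JAK, STAT and IRF genes, 7 rose and 5 fell in LM1 and LM9 versus HR1 at a median log2 fold change of 0.34, against −0.05 over all genes, of which 19.9% were called higher and 23.6% lower. In LM1 versus HR1 6 rose and 3 fell, beside 16.7% of all genes called higher and 18.7% lower. In LM9 versus HR1 7 rose and 4 fell, beside 20.4% and 21.9%. In LM9 versus LM1 1 rose and 2 fell, beside 11.5% and 10.6%. The lower counts were near these shares, and the 1 higher gene in LM9 versus LM1 was below its share. Without the tumour labelled HR1 replicate 1, 4 were called higher and 3 lower in LM9 versus LM1, beside 45.5% of all genes in either direction. *Irf5*, a factor of toll-like receptor signalling, rose in LM1 (1.64) and LM9 (1.89) on the log2 scale, with the LM tumours at 29.7 to 40.6 CPM and HR1 at 7.81 to 13.7 CPM, and LM9 versus LM1 was not called. *Irf8*, a factor of myeloid cells, was 2.83, 1.40 and 2.70 CPM in LM9 against 3.37 to 14.2 CPM in HR1 and was called lower there (−2.03, edgeR adjusted p = 0.0126). *Ifnlr1*, the specific chain of the interferon lambda receptor, had 27, 137 and 100 counts in HR1 and 1 to 10 counts in each LM tumour, and was called lower in both models.

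Of these STAT genes, *Stat5b* rose in LM1 (0.74) and LM9 (1.05) versus HR1. *Stat3* (0.78), *Stat5a* (1.51) and *Stat6* (0.55) were called higher in LM9 and *Stat4* (1.69) in LM1, and of these 5 genes *Stat6* was the 1 called in LM9 versus LM1 (0.65). The IRF2-binding genes *Irf2bp2* (1.77 and 1.96) rose in both models, *Irf2bp1* (0.79) in LM1 and *Irf2bpl* (0.79) in LM9, and *Irf2bp1* fell in LM9 versus LM1 (−1.12). *Irf2* and *Ifngr1* were not called in any of the comparisons of single models, with *Irf2* at 0.41 and 0.36 and *Ifngr1* at −0.48 and −0.65 in LM1 and LM9 versus HR1, and *Irf4*, at most 0.608 CPM, was not called either.

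Of 18 sensors and kinases that activate IRF3 and IRF7, 9 rose and 1 fell in LM1 and LM9 versus HR1, at a median log2 fold change of 0.40, beside 19.9% of all tested genes called higher and 23.6% lower. In LM9 versus LM1 5 rose, *Ifih1*, *Ikbke*, *Ddx58*, *Ticam1* and *Traf6*, and 13 were not called, where 11.5% of all genes were called higher. Without the tumour labelled HR1 replicate 1 the counts were 9 higher and 1 lower in LM9 versus LM1, 8 higher and 3 lower in place of 5 and 0 in LM1 versus HR1, and 10 higher and 2 lower in LM1 and LM9 versus HR1, where 45.5%, 52.8% and 56% of all genes were called in either direction. The RNA sensors *Ifih1* (1.84 and 3.81) and *Ddx58* (1.47 and 2.51) rose in LM1 and LM9 versus HR1, as did the DNA sensor *Cgas* (1.34 and 1.17) and the kinase *Irak4* (1.23 and 1.46). *Tlr3* rose in both (1.22 and 2.48), and *Tlr7* fell in LM9 versus HR1 (−1.81). *Ikbke*, a kinase that phosphorylates IRF3 and IRF7, was above LM1 in LM9 by 1.17, and the adaptor *Ticam1* by 0.87.

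Of 14 feedback inhibitors, 5 rose and 3 fell in LM1 and LM9 versus HR1 at a median log2 fold change of 0.29, beside 19.9% of all tested genes called higher and 23.6% lower, so the lower share was near that of all genes. In LM9 versus LM1 4 rose and 1 fell, beside 11.5% of all genes called higher and 10.6% lower. Without the tumour labelled HR1 replicate 1 these counts were 6 and 3, beside 45.5% of all genes in either direction. *Usp18*, a protease that is bound to IFNAR2 and dampens the receptor, was 34.6 to 58.9 CPM in HR1, 116 to 129 CPM in LM1 and 450 to 562 CPM in LM9, with log2 fold changes of 1.46 and 3.51 versus HR1. *Trim30a* rose by 1.62 and 3.65 on the log2 scale. *Socs3* rose in both models (1.24 and 1.78), whereas *Socs1* rose in LM1 (0.90) and was lower in LM9 than in LM1 (−0.52). *Cish* was called higher in LM1 (2.31), and *Ptpn6*, a phosphatase of blood cells, was lower in both (−1.20 and −1.55). In LM9 versus LM1, *Pias4* (0.88) and *Ptpn2* (0.62) were higher beside *Usp18* (2.05) and *Trim30a* (2.03).

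Of 48 interferon-stimulated target genes, 46 rose and 2 were not called in LM1 and LM9 versus HR1, at a median log2 fold change of 2.12, beside 19.9% of all genes called higher. For LM1 versus HR1 36 rose and 12 were not called (median 1.36), beside 16.7% of all genes called higher. In LM9 versus HR1 46 rose and 1 fell (median 2.95), beside 20.4% called higher and 21.9% lower. In LM9 versus LM1 41 rose and 1 fell (median 1.49), beside 11.5% and 10.6%. The medians over all genes were −0.05 to 0.00. The antiviral genes *Oas2* (3.62), *Zbp1* (2.86) and *Oas1g* (2.53) and the chemokine *Cxcl10* (2.37) had the largest changes in LM1 versus HR1, where *Oas1g* belongs to a family of near-identical copies. In LM9 versus HR1 these were *Oas2* (5.74), *Mx1* (5.11), *Rsad2* (4.58) and *Ifi44* (4.30), and in LM9 versus LM1 *Mx1* (2.88), *Gbp7* (2.86), *Nlrc5* (2.76) and *Oas3* (2.71). The gene that fell was *Ifi27*, at 146 to 478 CPM in HR1, 377 to 544 CPM in LM1 and 102 to 147 CPM in LM9, and it is named here after its values were seen.

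**Figure D5:**
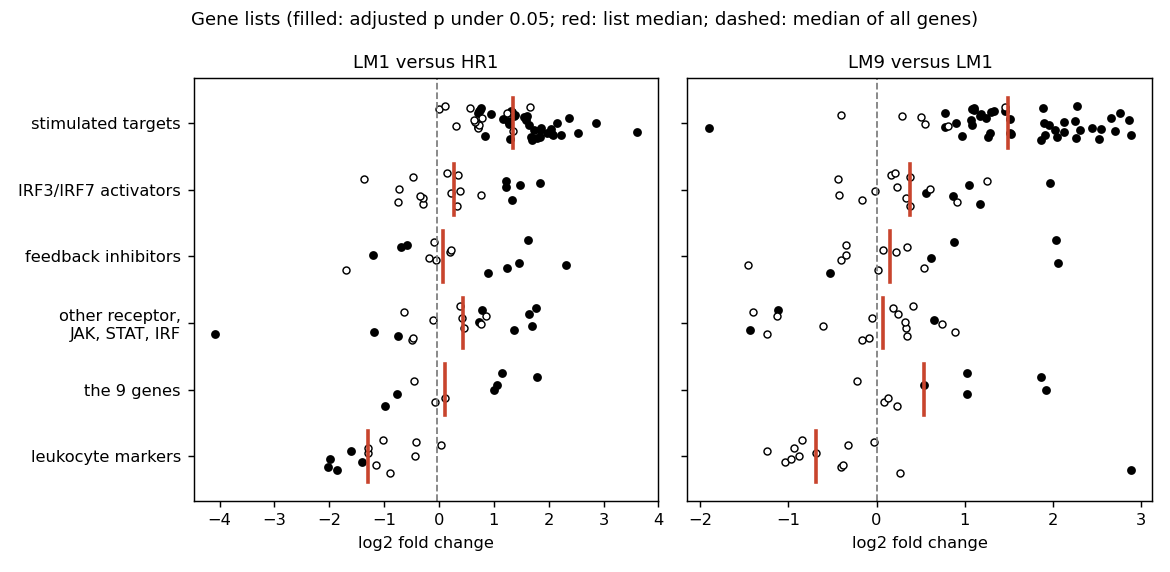
Log2 fold change of each gene in 6 lists for LM1 versus HR1 and LM9 versus LM1 (filled symbols, adjusted p under 0.05), with the list median in red and the median of all genes dashed. The interferon-stimulated targets lie at medians of 1.36 and 1.49, and the leukocyte markers at −1.29 and −0.68.

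The genes whose patterns over the 9 tumours were most like those of the members were found by the root mean square difference of log2 CPM, each gene centred on its own mean, among 12368 candidates. The measure was taken for the 5 members whose model means spanned at least 1 on the log2 scale. *Irf7* was most like *H2-Q5* (0.157), *Oasl2* (0.184) and *Dapk2* (0.254). *Stat2* was most like *Znfx1* (0.224), *Parp10* (0.257) and *H2-Q10* (0.273), and *Irf9* was most like *H2-T-ps* (0.0965), *H2-K1* (0.108) and *Parp11* (0.155). The H2 genes are class I histocompatibility genes with near-identical copies, so their counts are uncertain. *Irf1* was most like *Hmmr* (0.132), *Cep89* (0.140) and *Cnot3* (0.142), and *Tyk2* was most like *Srpk2* (0.104), *Xpc* (0.110) and *Marf1* (0.117). Between members, *Irf1* and *Irf9* differed by 0.341, *Irf9* and *Stat2* by 0.442, *Stat2* and *Irf7* by 0.452, and *Irf7* and *Ifnar1* by 1.83. The 9 tumours form 3 models of 3 tumours, so these values describe 9 points that are not independent, and they were not tested.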

How the data were processed

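RNA was measured in 9 tumours, and the model and replicate number of each came from the sample titles. The authors deposited counts of reads per gene and tumour, not normalized. Per the methods, single-end reads of stranded mRNA libraries were aligned to mm10 with STAR, and 5′ ends on the exons of each gene were counted with qCount of QuasR. The strand setting, tool versions and the filter behind the 14108 listed genes are not given in the sources used here. Symbols were matched by Entrez number to RefSeq for 14085 genes, and positions and exon lengths came from GENCODE M21 basic (GRCm38, the same build as mm10).

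The counts were scaled by TMM, and 14086 genes passed filterByExpr of edgeR 4.0.16 (R 4.3.3). A robust quasi-likelihood model was fitted to all 9 tumours in 3 groups, and p-values were adjusted over all tested genes by the Benjamini-Hochberg method. SEs are the log2 fold change over the square root of F, and 95% intervals are per gene and unadjusted. The total counts, 32393958 to 46681945 per tumour, set the counting error of each level, which was not removed from the spread between tumours, and duplicates from PCR cannot be recognized in the counts, so counting intervals would cover counting error only. No 2 tumours had identical counts.

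The alternatives were RLE factors or library size only, no filter or a minimum of 1 CPM in 3 or more tumours, limma-voom (limma 3.58.1), DESeq2 1.42.0, the replicate number as a block, only the groups compared, and each tumour left out. Python 3.11.15 with pandas 2.3.3, numpy 2.4.6 and matplotlib 3.10.9 was used for tables and figures.

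The members and gene lists were chosen with earlier results of these data known. The genes named were the 9 members, every gene of the list of 18 other receptor, JAK, STAT and IRF genes, every listed interferon gene, the 4 called genes with the largest absolute log2 fold change of each other pathway list in each of the comparisons LM1 versus HR1, LM9 versus HR1 and LM9 versus LM1, and the 3 genes of most similar pattern (mean of at least 1 CPM) for each of 5 members. A gene named in this way is not always given in the other comparisons. *Traf6*, *Socs1*, *Ifi27*, *Nfib* and the marker genes were named outside this rule, after their values were seen. Some further genes are not reported here.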

Additional observations from a re-analysis of the deposited data

Results flagged for a closer look

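For 5 of the 9 genes the effect in LM9 versus HR1 differed from that in LM1 versus HR1, by edgeR's test of LM9 versus LM1, which uses no HR1 mean and in which 11.5% of all tested genes were called higher and 10.6% lower. The log2 difference was 1.02 for *Tyk2*, 1.92 for *Stat2*, 0.53 for *Irf1*, 1.86 for *Irf7* and 1.02 for *Irf9*. The calls of *Irf1* and *Irf9* were both lost without LM1 replicate 1, LM1 replicate 3, LM9 replicate 1 or LM9 replicate 3. For *Stat2*, *Irf1*, *Irf7* and *Irf9* both LM models lay above HR1 and LM9 lay further from it. *Tyk2* differed in that LM1 lay below HR1 and LM9 above it, where the LM9 value against HR1 was not called. LM1 and LM9 are 1 line each, so a difference between them is a difference between 2 lines.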

How the results depend on the processing

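In the comparisons with HR1, 6 of the 9 genes were called under every alternative that left out no replicate, save 5 in LM9 versus HR1 with only the groups compared, and in LM9 versus LM1 4 to 5 were called. Over the fits that left out a tumour the counts were 5 to 6 in LM1 and LM9 versus HR1, 6 to 7 in LM1 versus HR1, 5 to 6 in LM9 versus HR1, and 3 to 5 in LM9 versus LM1. The 3 in LM9 versus LM1 came without LM1 replicate 1, LM1 replicate 3, LM9 replicate 1 or LM9 replicate 3, where *Irf1* and *Irf9* were lost, and the cause was not tested. A separate value for LM1 and LM9 together could not be had with only the groups compared, since that comparison uses all groups.

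Of the log2 fold changes of the 9 genes under alternatives, 577 kept their direction and call, 17 were no longer called, 1 was newly called (*Irf3* in LM1 versus HR1 without HR1 replicate 3, −0.60), and 8 changed sign. The 8 were all of *Ifnar2*, never called. With library size only it was 0.0209 in LM1 and LM9 versus HR1 and 0.0101 in LM1 versus HR1, and in LM9 versus HR1 it was −0.0020 with a minimum of 1 CPM in 3 tumours. Over the fits that left out a tumour it ran from −0.0698 to 0.0549, from −0.114 to 0.0147 and from −0.0305 to 0.0951 in these 3 comparisons, each highest without HR1 replicate 1. The level of *Ifnar1* in LM9 was 47.6 CPM with RLE factors.

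The count of all genes called moved by more than 1.5 times in LM1 versus HR1 from 4994 to 3008 with only the groups compared, in LM9 versus HR1 from 5958 to 3768 without LM9 replicate 1, and in LM9 versus LM1 from 3102 to 7709 with only the groups compared. Over the fits that left out a tumour it was 3121 to 7453, 3768 to 7862 and 1150 to 6413 in these comparisons. With the replicate number as a block, 6, 6 and 6 of the 9 genes were called in the comparisons with HR1, and 4 in LM9 versus LM1, where *Irf1* lost its call (0.53, edgeR adjusted p = 0.0715), and the genes called in LM9 versus LM1 were 2295. Same-numbered tumours of different models had correlations of their deviations from −0.117 to 0.162, so the numbers were not taken to pair the tumours.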

Other observations

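Within LM9, replicate 2 was the lowest of the 3 tumours for *Stat2* (169 CPM), *Irf9* (158 CPM), *Irf7* (1825 CPM) and *Ifnb1* (6.98 CPM), but not for *Irf1* (211 CPM) or *Ifnar1* (47.9 CPM). *Ifnb1* in the other LM9 tumours was 21.2 and 16.0 CPM. These genes were singled out after their values were seen, with 3 tumours in each model, and no test was made.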
